A study of Mus musculus with 8 samples.

Results

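The sperm tail genes described here are 10 mouse genes: Odf1, Odf2, Akap3, Akap4, Cabyr, Gapdhs, Smcp, Oaz3, Tekt1 and Tekt2. All of these genes but Oaz3, which encodes an ornithine decarboxylase antizyme, encode proteins that build or fuel the flagellum. The 10 genes were chosen by name, and every row that carries such a name was taken from each of 5 tables of small RNA levels. All 10 were listed in the supernatant table, 9 in the pellet table (Tekt2 was not), 7 in the ACR IP table (Cabyr, Tekt1 and Tekt2 were not), 10 in the MVH IP table and 0 in the round spermatid table. The 5 tables together named 7794 genes among 10822 features.

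The tail is assembled while round spermatids elongate. Outer dense fibres run along the axoneme, the microtubule core that beats. A mitochondrial sheath surrounds them in the midpiece and a fibrous sheath surrounds them in the principal piece. Many of the mRNAs for these structures are made in round spermatids and stored for later translation. Round spermatids also hold the chromatoid body, a cytoplasmic granule of RNA and protein that contains MVH (the RNA helicase DDX4) and the piRNA-binding protein MIWI.

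The series followed chromatoid body purification from testes of C57BL/6 mice at least 6 weeks old, in 8 libraries of RNA of 19 to 33 nt. The groups were the supernatant, the first pellet, the second pellet, an IP with an MVH antibody, a control IP with an antibody to the acrosomal protease acrosin (ACR), sorted round spermatids labelled hetMIWI, and the lysate from which the fractions came. The MVH IP had 2 libraries, given as 1 column, and the other groups had 1 library each. The labels state no further genotype for hetMIWI and no other allele or treatment for any group, and they do not say how many animals were pooled. Tubule cells had been cross-linked with formaldehyde and sonicated, the first pellet was sonicated again and filtered, and both IPs were made from the second pellet, per the labels' protocols.

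Levels are FPKM, that is, fragments scaled to the length of the feature and to the size of the library. With 1 column per group there is no replicate check and no test between groups was made: differences compare libraries, and errors and intervals cover counting only. Fewer cells of a type and less RNA per cell cannot be told apart in such bulk samples. Whether a read on these genes is a fragment of mRNA, a piRNA or another small RNA was not tested. Ratios are log2 of (fraction FPKM + 1) over (lysate FPKM + 1), which understates the change of low genes, over features with at least 1 FPKM in either column. Each counting SE belongs to the ratio without a pseudocount, which is given beside it. The lysate library is shared by all 3 ratios, so the ratios are not independent of each other. Its values were 2.39 times higher in the pellet table than in the supernatant table for all 9 genes and 2.06 to 2.08 times higher in the ACR IP table for 7 genes. Each table was scaled separately, so levels are set side by side only within a table.

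Markers of late spermatid chromatin were abundant in the supernatant and lysate columns, with all 5 of Prm1, Prm2, Prm3, Tnp1 and Tnp2 measured and a summed level of 495.0 FPKM in the supernatant and 440.6 FPKM in the lysate. Of the other germ cell lists, 6 of 10 spermatocyte and 6 of 9 acrosome markers were measured, and Kit and Id4 of 6 spermatogonial markers. Of somatic markers, Clu of 6 Sertoli cell markers, 3 of 5 Leydig cell markers and 1 of 5 blood markers were measured, and 0 of 3 peritubular and vessel markers. The Leydig cell markers summed to 20.9 FPKM in the supernatant and 16.7 FPKM in the lysate. Most of this was Insl3, with 17.8 FPKM in the supernatant and 13.6 FPKM in the lysate, which is within the range of the tail genes. The part of such cells in the results below was not tested.

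In the supernatant, small RNA on the tail genes lay slightly above the lysate for 9 of the 10 genes, by 1.12 to 1.53 times without a pseudocount, and below it for Gapdhs. The median log2 ratio was 0.29 over the 10 genes, against 0.02 over all 3532 named genes measured, 53.6% of which lay above the lysate. Of the 10 genes, 7 lay above the upper quartile of named genes (0.22). The upper quartile of all features was 0.281, which Akap4 (0.256) of those 7 did not pass. Among the 7, the counting interval without a pseudocount held 0 for Akap3, Akap4, Cabyr and Tekt2. At the 2-fold size rule 0 of 10 were higher and 0 lower, against 1.16% of named genes higher and 0.934% lower, and 7.16% and 5.42% of all features.

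Odf1 encodes a major outer dense fibre protein, and its locus is chr15:38148957-38156490 (mm9, as for all loci here). It stood at 22.2 FPKM in the supernatant, from 252 implied reads, and 15.7 FPKM in the lysate, from 119 implied reads. The log2 ratio was 0.47, or 0.50 without a pseudocount (counting SE 0.16), higher than in 91.2% of named genes. Odf2, at chr2:29745239-29787266, encodes an outer dense fibre protein that is also a component of centriolar appendages. Its level was 22.3 FPKM in the supernatant and 19.4 FPKM in the lysate, a log2 ratio of 0.20, or 0.21 without a pseudocount (counting SE 0.13). The supernatant levels of the fibre genes did not differ beyond counting error, and their lysate intervals also overlapped (13.0 to 18.8 FPKM for Odf1, 16.8 to 22.2 FPKM for Odf2).

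The fibrous sheath genes had the widest spread of levels. Akap3 (chr6:126803115-126824326) and the X-linked Akap4 (chrX:6644644-6655732) encode anchoring proteins for protein kinase A that form the scaffold of the sheath. Akap3 stood at 3.17 FPKM in the supernatant and 2.41 FPKM in the lysate, a log2 ratio of 0.29, or 0.40 without a pseudocount (counting SE 0.22). Akap4 stood at 8.18 FPKM in the supernatant and 6.69 FPKM in the lysate, a log2 ratio of 0.26, or 0.29 without a pseudocount (counting SE 0.19). In both libraries the interval of Akap4 lay above that of Akap3. Cabyr, a calcium-binding protein of the sheath (chr18:12899863-12913651), had 3.18 FPKM in the supernatant and 2.09 FPKM in the lysate, from 25 and 11 implied reads, and a log2 ratio of 0.43, or 0.60 without a pseudocount (counting SE 0.50). Its small number of reads left a ratio of equal levels within counting error.

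Gapdhs, the sperm form of the glycolytic enzyme glyceraldehyde-3-phosphate dehydrogenase (chr7:31514905-31524375), had 16.9 FPKM in the supernatant and 18.6 FPKM in the lysate. Its log2 ratio of -0.13, or -0.14 without a pseudocount (counting SE 0.14), was the lowest of the 10 genes and higher than in 29.7% of named genes.

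Akap3, Akap4 and Gapdhs were the tail genes whose promoter windows held the letters TGATGTCA on either strand. These letters were picked after the sequences had been read. The windows are the 250 bases before the annotated start in RefSeq's GRCm38.p6, which is another build than the mm9 of the loci above. Of the 10 genes, 7 had windows (15 in all), and none was available here for Odf1, Oaz3 or Cabyr. The letters stood in 4 windows of those 3 genes, against 2.93% of all 32851 windows of that length (3.41% of 27025 genes). The full cyclic AMP response element, TGACGTCA, stood in windows of 0 of the 7 genes, against 1.55% of all windows. In the sequences below, which are shown because 2 of the genes share a run of bases, capitals mark TGATGTCA or its reverse complement TGACATCA, and each sequence reads in the direction of the gene. The windows are chr6:126852848-126853097 on the plus strand for Akap3, chrX:7067265-7067514 on the plus strand for Akap4 and chr7:30743682-30743931 on the minus strand for Gapdhs.
Akap3: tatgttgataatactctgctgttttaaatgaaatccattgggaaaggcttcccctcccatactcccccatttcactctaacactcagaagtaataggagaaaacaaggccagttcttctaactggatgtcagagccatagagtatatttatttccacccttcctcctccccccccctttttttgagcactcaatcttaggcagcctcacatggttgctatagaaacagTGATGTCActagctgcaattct
Akap4: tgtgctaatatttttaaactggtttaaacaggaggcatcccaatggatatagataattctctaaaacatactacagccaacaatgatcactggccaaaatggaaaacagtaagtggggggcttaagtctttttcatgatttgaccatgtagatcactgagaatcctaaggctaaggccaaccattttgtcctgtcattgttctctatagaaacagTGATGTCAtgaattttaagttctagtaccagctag
Gapdhs: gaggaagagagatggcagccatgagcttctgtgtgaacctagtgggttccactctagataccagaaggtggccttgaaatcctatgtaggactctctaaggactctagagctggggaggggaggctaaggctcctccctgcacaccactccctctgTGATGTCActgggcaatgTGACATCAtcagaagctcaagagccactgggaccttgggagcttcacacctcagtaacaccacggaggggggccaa
The capitals begin 22 bases before the start in Akap3, 35 bases before it in Akap4, and 94 and 76 bases before it in Gapdhs. Akap3 and Akap4 share the 20-base run ctatagaaacagTGATGTCA, which begins 34 bases before the start of Akap3 and 47 bases before that of Akap4. It was found in 2 of the 32851 windows, those of these genes. The run was picked as the longest that these windows share, so that count was largely fixed by the choice and carries no weight. A match of letters is a description of the sequence and does not show that a factor binds there. The supernatant log2 ratios were 0.29 for Akap3, 0.26 for Akap4 and -0.13 for Gapdhs, the last being the lowest of the 10 genes. Without a pseudocount, the 95% counting interval held 0 for Akap3 (-0.04 to 0.84), Akap4 (-0.08 to 0.66) and Gapdhs (-0.42 to 0.14). The sign of none of them is therefore settled by counting.

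Smcp, a cysteine-rich protein of the mitochondrial sheath (chr3:92387787-92392946), had the highest level of the 10 genes. It stood at 33.7 FPKM in the supernatant (95% counting interval 30.0 to 37.8) and 27.5 FPKM in the lysate (23.4 to 32.1), a log2 ratio of 0.29, or 0.29 without a pseudocount (counting SE 0.14). In neither library did its interval overlap that of the next gene, and 98.2% of named genes had a lower lysate level. Oaz3, the ornithine decarboxylase antizyme of haploid germ cells (chr3:94237087-94240538), had 16.9 FPKM in the supernatant and 11.1 FPKM in the lysate. Its log2 ratio of 0.57, or 0.61 without a pseudocount (counting SE 0.18), was the highest of the 10 genes and higher than in 94.5% of named genes.

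Tekt1 (chr11:72158221-72175382) and Tekt2 (chr4:125999364-126002443) encode tektins, filament proteins of the axonemal microtubules. Both were low. Tekt1 had 2.84 FPKM in the supernatant and 2.52 FPKM in the lysate, a log2 ratio of 0.12, or 0.17 without a pseudocount (counting SE 0.35). Tekt2 had 1.97 FPKM in the supernatant and 1.29 FPKM in the lysate, a log2 ratio of 0.37, or 0.61 without a pseudocount (counting SE 0.45), and 33.0% of named genes had a lower lysate level. With 14 to 43 implied reads per library, a difference of this size was not detectable at this depth for either tektin.

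**Figure D1:**
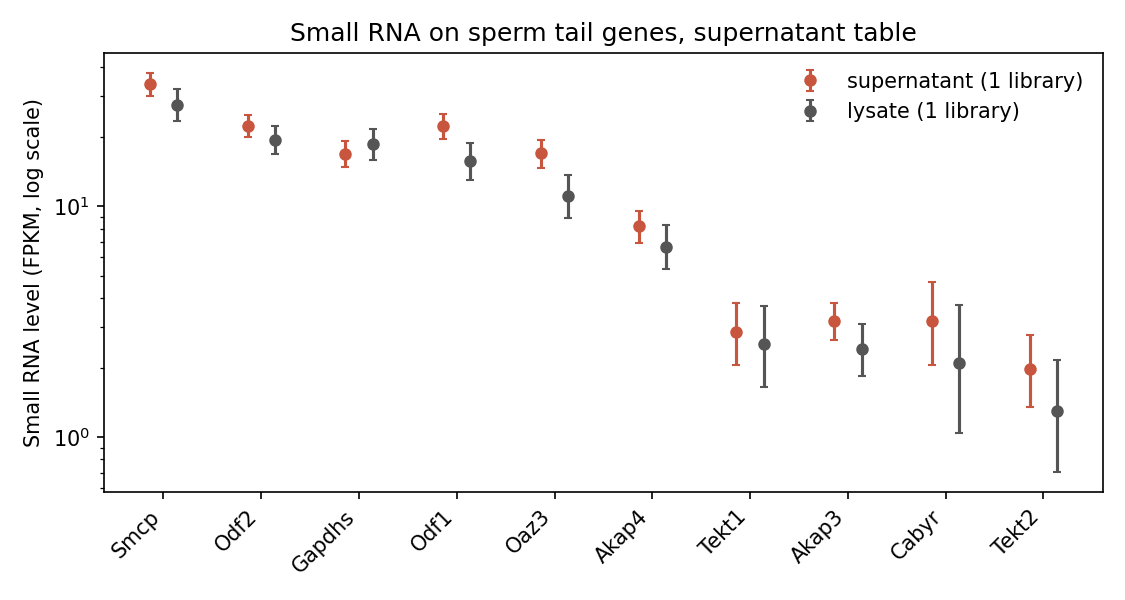
Small RNA level in FPKM on a log axis of the 10 sperm tail genes in the supernatant and in the lysate (1 library each), with 95% counting intervals from implied reads. Smcp stands highest at 33.7 FPKM in the supernatant and 27.5 FPKM in the lysate, and Tekt2 lowest at 1.97 and 1.29 FPKM.

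The lysate levels fell into 4 steps whose counting intervals did not overlap. Smcp stood alone at the top. Odf2, Gapdhs, Odf1 and Oaz3 followed, each overlapping its neighbour in that order. Akap4 stood apart from both neighbours, and Tekt1, Akap3, Cabyr and Tekt2 formed a low group whose neighbours overlapped. In the supernatant, Odf1 and Odf2 overlapped each other and lay above Oaz3 and Gapdhs, which also overlapped each other. The low group again consisted of Cabyr, Akap3, Tekt1 and Tekt2.

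Without a pseudocount, the 95% counting interval of the log2 ratio lay above 0 for 3 genes, namely Odf1 (0.50, interval 0.19 to 0.80), Oaz3 (0.61, 0.26 to 0.97) and Smcp (0.29, 0.02 to 0.57), and held 0 for the other 7. The share of all features by this interval rule was not computed, so the count of 3 has no background. In the authors' deposited table the q-value was 0.0101 for Oaz3 and 0.0197 for Odf1, and 0.220 for Smcp. A q-value below 0.05 was thus given to 2 of 10 tail genes, both higher in the supernatant, against 3.77% of all features higher and 4.83% lower in the authors' deposited table. None of the 10 carried the authors' own call in that table, which 0.942% of features carried as higher and 1.59% as lower.

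Other tail genes were taken from a list of 70. Of 46 measured, 33 lay above the lysate and 13 below, with a median log2 ratio of 0.15, and 0 reached 2-fold. The sperm calcium channel gene Catsper2 was highest, with 2.09 FPKM in the supernatant and 0.988 FPKM in the lysate (log2 ratio 0.64), followed by Aldoart2, a sperm aldolase (0.60), and Gstm5, a glutathione transferase (0.60). The lowest were Spem1 (-0.48), the dynein intermediate chain gene Dnaic2 (-0.35) and Spag16, of the axonemal central apparatus (-0.29). The late spermatid chromatin genes had a median of 0.26 with 5 of 5 above the lysate, the acrosome genes 0.22 with 4 of 6 above, and the spermatocyte genes 0.12 with 4 of 6 above.

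In the pellet column, small RNA on all 9 listed tail genes were reduced 2-fold or more from the lysate level, as was most of the table. The background was 87.1% of named genes at least 2-fold lower and 7.98% higher, and 86.5% and 8.75% of all features. The median log2 ratio was -2.30 over the 9 genes, -2.20 over all features and -2.01 over named genes. Relative to the median of all features, 6 tail genes were lower and 3 higher, and 0 of 9 were 2-fold away from it in either direction, against 17.1% of all features at least 2-fold lower and 14.6% higher than that median. With a pseudocount of 10 in place of 1, Akap3, Cabyr and Tekt1 no longer reached 2-fold, which left 6 of 9. The labels tie this column to both pellet samples, so each value is the authors' pellet value with no n.

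On the scale with a pseudocount of 1, Odf2 was furthest below the lysate, with 5.02 FPKM in the pellet and 46.3 FPKM in the lysate, a log2 ratio of -2.97, which is -0.78 relative to the median of all features, or -3.20 without a pseudocount (counting SE 0.31). Odf1 followed with 4.83 FPKM in the pellet and 37.5 FPKM in the lysate, a log2 ratio of -2.72, which is -0.53 relative to that median, or -2.96 without a pseudocount (counting SE 0.40). The order depends on the pseudocount: without one, Tekt1 (-3.95) and Akap3 (-3.24) lay below Odf2 and Odf1. Gapdhs had 7.07 FPKM in the pellet and 44.4 FPKM in the lysate (log2 ratio -2.49, or -2.65 without a pseudocount, counting SE 0.30). On the scale with a pseudocount of 1, Odf2, Odf1 and Gapdhs lay below the lower quartile of named genes (-2.39). The lower quartile of all features was -2.73, and of these genes Odf2 lay below it while Odf1 and Gapdhs did not.

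The remaining genes stood close to the median of the table or rested on few reads. Smcp kept the highest pellet level, with 14.1 FPKM in the pellet and 65.7 FPKM in the lysate (log2 ratio -2.14, or -2.22 without a pseudocount, counting SE 0.28). Akap4 had 2.45 FPKM in the pellet and 15.99 FPKM in the lysate (log2 ratio -2.30, or -2.70 without a pseudocount, counting SE 0.36). Oaz3, the highest of the 10 in the supernatant ratio, had 4.63 FPKM in the pellet and 26.5 FPKM in the lysate (log2 ratio -2.29, or -2.51 without a pseudocount, counting SE 0.41). Akap3, Cabyr and Tekt1 had the lowest levels of the 9 tail genes in both columns. Akap3 had 0.607 FPKM in the pellet and 5.75 FPKM in the lysate (log2 ratio -2.07, or -3.24 without a pseudocount, counting SE 0.62). Cabyr had 1.14 FPKM in the pellet and 5.00 FPKM in the lysate (log2 ratio -1.49, or -2.13 without a pseudocount, counting SE 1.25). Tekt1 had 0.390 FPKM in the pellet and 6.04 FPKM in the lysate (log2 ratio -2.34, or -3.95 without a pseudocount, counting SE 1.18). The counting interval without a pseudocount lay below 0 for 8 genes and held 0 for Cabyr (-4.59 to 0.32). The share of all features by that interval rule was not computed, and most of the table was lower in the pellet.

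**Figure D2:**
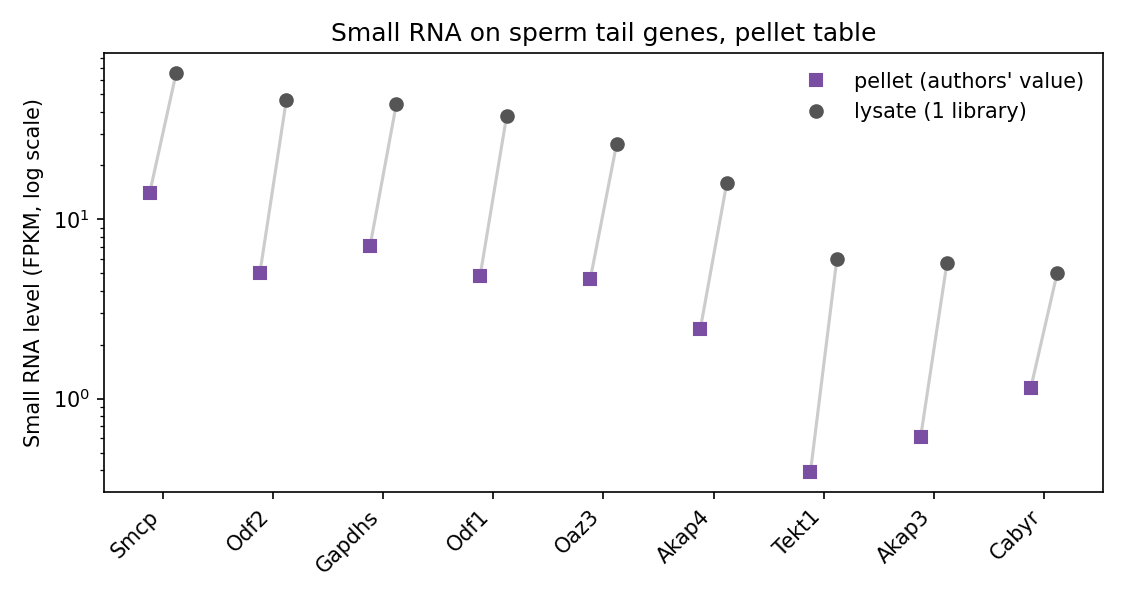
Small RNA level in FPKM on a log axis of the 9 sperm tail genes listed in the pellet table, with the authors' pellet value as squares and the lysate library as circles, joined per gene. All 9 pellet values lie below the lysate, from 0.390 FPKM for Tekt1 to 14.1 FPKM for Smcp.

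Of the 9 tail genes, 8 had a q-value below 0.05 as lower in the pellet in the authors' deposited table, against 69.4% of all features lower and 5.59% higher. The exception in the authors' deposited table was Cabyr, with a q-value of 0.110. Odf2 and Gapdhs carried the call in the authors' deposited table, which 18.7% of features carried as lower and 0.699% as higher. Of 23 other tail genes measured, 22 were lower by the size rule, and the median over the 23 was -2.36 (log2 ratio). The lowest of these were the tubulin gene Tubb2c (-3.31) and the fibrous sheath protein genes Ropn1l (-3.06) and Spa17 (-2.96). The exception was Dnaic2, with 4.81 FPKM in the pellet and 3.26 FPKM in the lysate (log2 ratio 0.45). Late spermatid chromatin genes had a median of -3.03 over 5 genes, all lower. Among markers of other cells, Kit stood higher, with 18.2 FPKM in the pellet and 5.27 FPKM in the lysate, while Clu (-1.57) and the Leydig cell genes Insl3 (-3.71) and Cyp17a1 (-2.48) stood lower. The part of these cells in the pellet values was not tested.

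**Figure D3:**
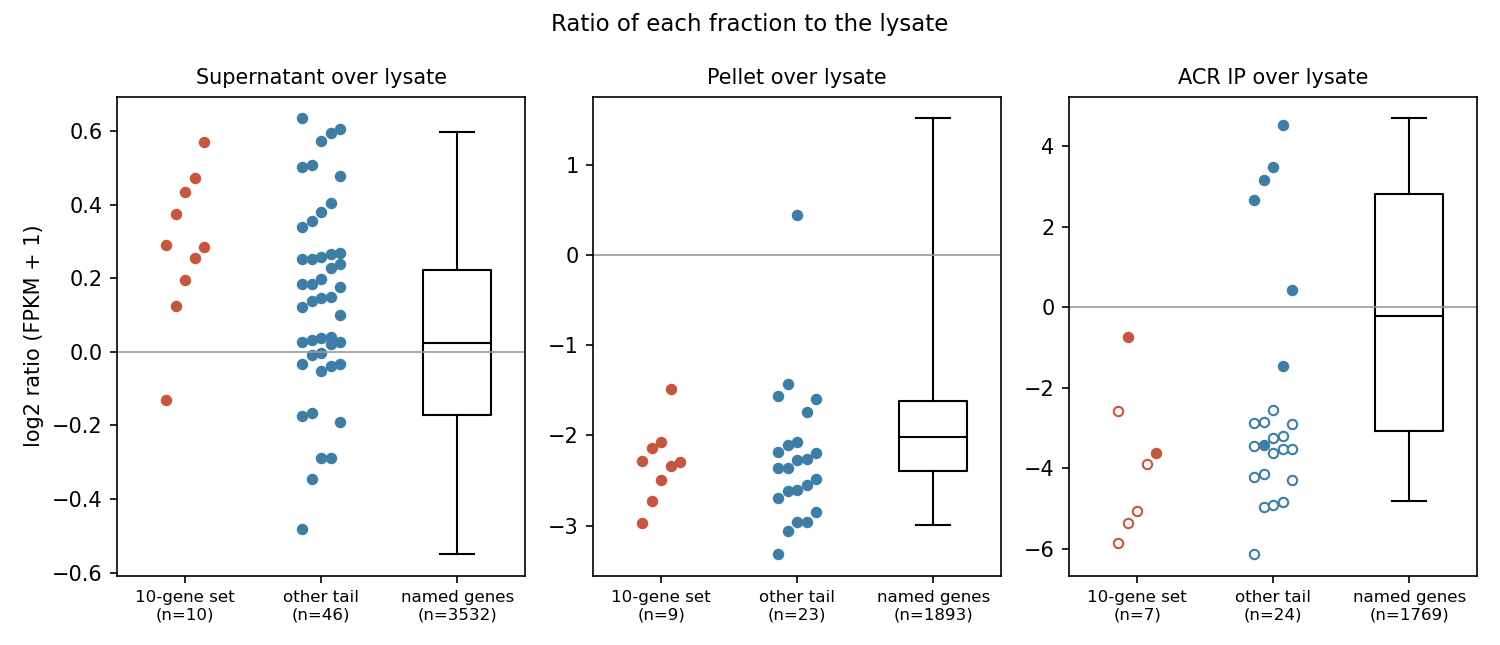
Log2 ratio of fraction to lysate (pseudocount of 1 FPKM) for the sperm tail genes in the supernatant, pellet and ACR IP tables, the other tail genes and all named genes of each table; open circles are genes listed at 0 in the ACR IP, and boxes give the quartiles and median with whiskers from the 5th to the 95th percentile. The tail genes lie between -0.13 and 0.57 in the supernatant and between -2.97 and -1.49 in the pellet, where the named genes have medians of 0.02 and -2.01.

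In the ACR IP, the control, small RNA was listed above 0 on Oaz3 and Gapdhs, while Odf1, Odf2, Akap3, Akap4 and Smcp were listed at 0. Oaz3 had 13.3 FPKM in the ACR IP, from 5 implied reads, and 22.9 FPKM in the lysate, from 86. Its ratio was 0.581 with a 95% counting interval of 0.184 to 1.41, which holds equal levels. Gapdhs had 2.23 FPKM in the ACR IP, from 1 implied read, and 38.5 FPKM in the lysate, from 173, a ratio of 0.0578 (0.00146 to 0.326).

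This library was shallow, since 1 of its reads was worth as much FPKM as 10 lysate reads. At equal FPKM, 11.9 reads would have been counted on Odf1, 20 on Odf2, 6 on Akap3, 8.5 on Akap4 and 15.9 on Smcp. The lysate levels of these genes in the table were 32.7 FPKM for Odf1, 39.9 for Odf2, 4.97 for Akap3, 13.9 for Akap4 and 56.7 for Smcp. A share of 71.4% of the tail genes at 0 (5 of 7) stood beside 65.1% (547 of 840) of named genes within the same range of lysate levels. Over the whole table, 34.0% of 1769 named genes and 41.2% of 2539 features were at 0. The range is wide, and levels were not matched within it. The lysate levels of Odf1, Odf2 and Smcp were above those of 94.3%, 95.3% and 96.9% of named genes. By the size rule 6 of 7 were at least 2-fold lower, against 47.4% of named genes lower and 46.5% higher, and 59% and 36.4% of all features. These shares, and the medians that follow, include genes that passed the minimum of 1 FPKM through the ACR IP column alone. An example is Hsd3b1, with 7.52 FPKM in the ACR IP and 0.150 FPKM in the lysate. All 7 tail genes passed it in the lysate, so this background is not matched to them. The median log2 ratio, with genes at 0 included, was -3.90 over the 7 genes, -0.23 over named genes and -2.70 over all features. Relative to that last median 1 of the 7 genes, Oaz3, lay at least 2-fold higher and 4 lay at least 2-fold lower, against 43.2% of all features higher and 33.4% lower than that median by the same rule. With a pseudocount of 10, Akap3 no longer reached 2-fold, which left 5 of 7.

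Among 24 other tail genes in the ACR IP table, 17 were listed at 0, 19 were at least 2-fold lower and 4 at least 2-fold higher. Dnaic2 was the highest, with 78.2 FPKM in the ACR IP and 2.42 FPKM in the lysate (log2 ratio 4.53), followed by the radial spoke gene Rsph9 (3.47) and the tektin gene Tekt3 (3.15). Of the late spermatid chromatin genes 4 of 5 were listed at 0. Kit again stood higher, with 54.6 FPKM in the ACR IP and 1.65 FPKM in the lysate. Kit's lysate value was 2.20 FPKM in the supernatant table, so it did not scale as the tail genes did and its ratio is uncertain. Spaca3 (28.4 against 2.43 FPKM in the lysate) and Hsd3b1 (7.52 against 0.150 FPKM) also stood higher. Acrbp was slightly lower than the lysate, and Acrv1, Piwil1 and Insl3 were listed at 0.

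In the MVH IP, small RNA was listed above 0 on 4 of the 10 tail genes. Oaz3 was highest at 50.8 FPKM, above 97.7% of the 6396 named-gene entries of the table, at rank 149. An entry is a symbol at a locus, and the entries cover 6390 named genes. Shares of named genes in this column are shares of these entries. Cabyr followed with 8.997 FPKM, above 86.0% of named genes, and the whole value came from 1 of its 3 transcript rows. Akap3 had 3.79 FPKM, above 73.4% of named genes, and Akap4 had 0.0819 FPKM, above 37.0%. The order of these 4 genes differs from that in the lysate, where Akap4 stood above Akap3 and Cabyr. The Akap4 value is close to the floor, since 35.6% of named genes were at 0 and 37.0% lay below it. This column has no counting interval, so the order is uncertain.

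Odf1, Odf2, Smcp, Gapdhs, Tekt1 and Tekt2 were listed at 0 in the MVH IP. They include the 4 tail genes with the highest lysate levels. A share of 60% (6 of 10) at 0 stood beside 35.6% of all 6396 named-gene entries, 29.9% of the 1725 named genes within the tail genes' range of lysate levels (1.29 to 27.5 FPKM in the supernatant table), and 37.9% (22 of 58) of other tail genes. The share at 0 over all features was not computed. It was at most 47.2%, the share of all features that lay below Akap4 (0.0819 FPKM). Among marker genes, 3 of 5 late spermatid chromatin genes were also at 0, with Prm1 at 28.3 FPKM and Prm2 at 27.0 FPKM as the exceptions, as were 5 of 8 acrosome genes and 3 of 7 spermatocyte genes. Of the listed markers of other cells, Kit stood at 444.1 FPKM, above every tail gene, Clu at 7.58 FPKM and Id4 at 1.93 FPKM, while Cyp17a1 was at 0. The highest of the other tail genes were Dnaic2 (96.4 FPKM), Gpx4, the glutathione peroxidase of the mitochondrial capsule (28.1 FPKM), Catsper2 (22.4 FPKM), Ldhc, the sperm lactate dehydrogenase (15.2 FPKM), and the radial spoke gene Rsph1 (14.7 FPKM). The depth of this column is unknown, and an exact 0 in it may be a failed estimate, so no fold is given. The MVH IP table has no lysate or ACR IP column, and no ratio of the IPs was formed.

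**Figure D4:**
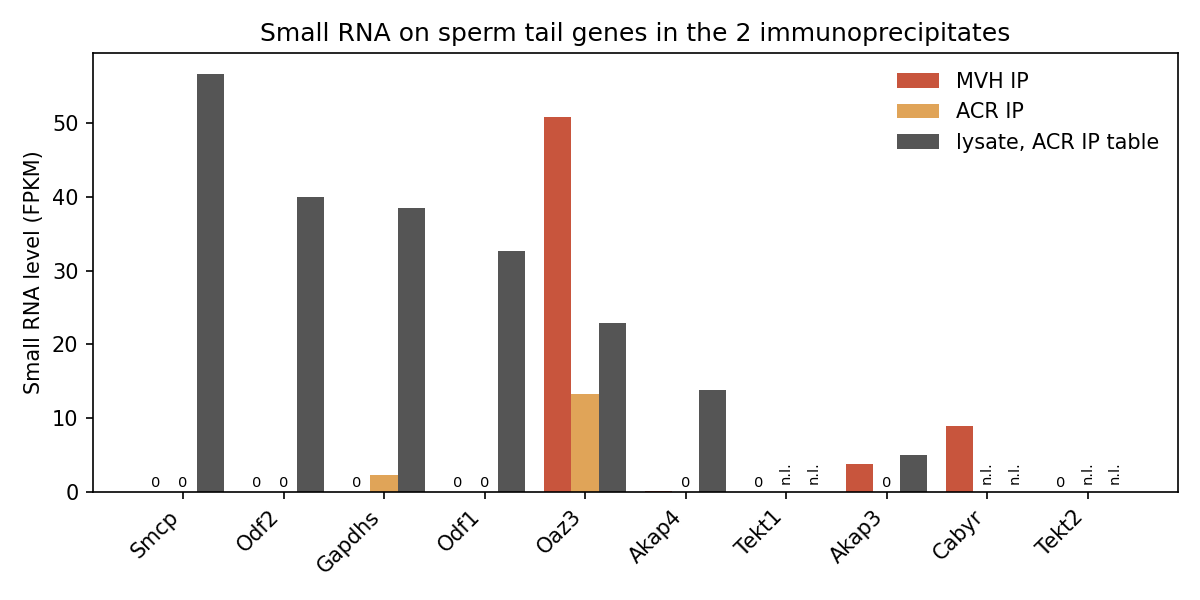
Small RNA level in FPKM of the 10 sperm tail genes in the MVH IP column, the ACR IP column and the lysate column of the ACR IP table, where the MVH IP comes from a separately scaled table; n.l. marks a gene not listed and 0 a gene listed at 0. Oaz3 is the highest in both IPs, at 50.8 FPKM in the MVH IP and 13.3 FPKM in the ACR IP, and the Akap4 value of 0.0819 FPKM in the MVH IP is too small to see.

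Oaz3 was the tail gene highest in both IP columns, and it is also one of the genes whose locus is shared. In the GENCODE M21 annotation of GRCm38, Mrpl9, a mitochondrial ribosomal protein gene, and Tdrkh, a Tudor domain gene of the piRNA pathway, overlap it on the opposite strand. Opposite-strand genes also overlap Odf2, Cabyr, Gapdhs and Tekt2, while none overlaps Odf1, Akap3, Akap4, Smcp or Tekt1. The sources used here do not say whether the authors counted by strand, so reads of these partners cannot be told apart from reads of the tail genes. No other feature listed in the 5 tables overlapped a tail gene's locus.

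None of the 10 genes was listed for the hetMIWI round spermatids. That table held 347 named genes, with a median of 13.0 FPKM, and 7 of them at 0. Of the 70 other tail genes it listed Ldhc, at 18.3 FPKM, and of the 5 late spermatid chromatin genes it listed Prm1. Of the 10 spermatocyte and 9 acrosome genes it listed 0. A gene that is missing from a table was given no value, so no level can be set for the tail genes in these cells.

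The named genes whose 3 ratios lay closest to the median profile of the 7 tail genes measured in all 3 tables (0.29 in the supernatant, -2.30 in the pellet and -3.90 in the ACR IP) were Rybp, Tmem170b, Ip6k1, Rnf169 and Cyb5d2. They were taken from 420 named genes above 0 in every column, and lay at Euclidean distances of 0.45, 0.45, 0.53, 0.57 and 0.60 on the log2 scale over the 3 ratios. The ACR IP part of the tail genes' profile rests on genes at 0 and so on the pseudocount.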

How the data were processed

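The 8 libraries of 7 groups hold RNA cut from a gel at 19 to 33 nt. The authors deposited 5 tables of FPKM values, and the supernatant and pellet tables also hold their p-values, q-values, a test statistic (a score with no fixed range, for lysate over fraction) and calls. TopHat, Cuffdiff and mm9 are named, without roles, per the submitters' processing notes; the sources used here give neither versions nor the annotation. The MVH IP table has 1 more column, of long RNA, which matches none of the samples and was left out.

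Ratios were computed with pandas 2.3.3 and numpy 2.4.6 under Python 3.11.15 (intervals with scipy 1.17.1, plots with matplotlib 3.10.9), with a pseudocount of 1 FPKM and a minimum of 1 FPKM in either column. Positive values are higher in the fraction. Count tests were not used, since the unit is FPKM and each group has 1 column. MVH IP rows that shared a symbol and a locus were added up.

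The counting SE of a log2 ratio without a pseudocount is the authors' log2 ratio over their deposited test statistic. Its square was split into reads of the fraction and of the lysate: a supernatant read was worth 0.667 lysate reads, for which 440 of 1111 features with under 10 lysate reads gave whole reads within 0.02 (306 at the next best value). For the ACR IP, 1 read was set equal to 10 lysate reads, which gave lysate reads 1.02 times those of the supernatant table (median of 131 genes; 0.562 with a worth of 20). Implied reads of Odf2, Akap4 and Cabyr, which have several transcripts, are less certain: their lysate FPKM times mRNA length per implied read was 224, 224 and 237, against 119 to 149 for the other genes. Implied reads ranged from 25 to 346 per gene in the supernatant and from 11 to 200 in the lysate. Reads are not marked by molecular identifiers, so intervals (95%) cover counting error only. The steps were run on simulated data made with the same variance formula. That checks the calculation and cannot show that the authors' statistic follows this formula.

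The 10 genes, the list of 70 other tail genes and the marker lists were chosen with earlier results of these data known. All 10 are named in every table that lists them; other tail genes are named as the 3 highest and 3 lowest ratios per comparison and the 5 highest levels, and genes of like pattern as the 5 nearest.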

Additional observations from a re-analysis of the deposited data

How the results depend on the processing

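No paired analysis was possible because each group compared has 1 column and the groups share only 1 replicate number, and no replicate could be left out. In the supernatant the 2-fold counts stayed at 0 under every alternative run, and the median log2 ratio of 0.29 became 0.12 with a pseudocount of 10. In the pellet, centring on the median of all features gave 0 genes at least 2-fold lower in place of 9, a median of -0.10 in place of -2.30, and turned Akap3 (0.13), Cabyr (0.71) and Smcp (0.054) positive. Centring on the median of named genes, chosen after seeing the data, gave 0 genes, a median of -0.29 and Cabyr at 0.52. The pellet median was -2.66 with a pseudocount of 0.1, -1.32 with 10 and -2.70 with none, the last chosen after seeing the data. A pseudocount of 10 left 6 of 9 pellet genes (not Akap3, Cabyr and Tekt1) and 5 of 7 ACR IP genes (not Akap3 and Oaz3) at least 2-fold lower. In the ACR IP, centring gave 1 gene at least 2-fold higher in place of 0, a median of -1.20 in place of -3.90, Akap3 at 0.12 and Oaz3 at 1.958. The ACR IP median was -7.13 with a pseudocount of 0.1 and -1.99 with 10. Over the 2 genes above 0 in both columns, 1 in place of 6 was at least 2-fold lower and the median was -2.18, or -2.45 without a pseudocount, since the genes at 0 drop out. The 6 tail genes at 0 in the MVH IP stayed 6 under both alternatives. Of 155 log2 ratios of single genes under the alternatives, 149 kept their sign, and the 6 that did not are those named for the centred scales. Round spermatids gave no value to vary. Depth limits the genes with few implied reads (Cabyr, Tekt1, Tekt2) and every ACR IP value.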

Other observations

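Dnaic2, a dynein intermediate chain gene of the axoneme outside the 10 genes, lay apart from the other tail genes in several columns. It had 0.860 FPKM in the supernatant and 1.36 FPKM in the lysate, 4.81 FPKM in the pellet and 3.26 FPKM in the lysate of that table, 78.2 FPKM in the ACR IP and 2.42 FPKM in the lysate of that table, and 96.4 FPKM in the MVH IP, above 98.8% of named genes. Its level was high in both the MVH IP and the control IP. It was singled out after its values were seen.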
